A study of Homo sapiens with 13 samples.

Results

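Lentiviral expression of miR-454 was compared with its vector control in A549, an established human lung adenocarcinoma cell line, by sequencing of poly(A) RNA. The comparison uses 2 of the 13 samples of the series, LV-miR454 (genotype label: overexpression of miR454) and LV-vector-34 (genotype label: control). Both lines carry a pCDH-type lentiviral vector with a CMV promoter and are described as stable lines. The sources used here do not say whether a line is 1 clone or a pool of infected cells. Of 39708 gene symbols in the table, 14890 were measured, meaning that they had 20 or more reads over both libraries and 1 CPM or more in either, CPM being the read count relative to the scaled library total. The table also holds 5 other A549 libraries, which are shown for their levels: LV-miR301a, LV-3+4 (both microRNAs together by its label), and the CRISPRd set with CRISPRd_Control, CRISPRd_miR301a-#2 and CRISPRd_miR454-#1, in which a microRNA precursor was targeted for knockout. CRISPRd_Control served as a second control library. With 1 library per group there is no replicate check and no p-value, and every fold below compares 2 libraries, with an exact 95% interval that covers counting error only.

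MicroRNAs are short RNAs that are cut from a hairpin precursor and loaded into Argonaute proteins. There the seed, the bases next to the 5′ end, pairs with matching sites that lie mostly in the 3′ untranslated regions (UTRs) of messenger RNAs, which lowers their stability and translation. miR-454 and miR-301a belong to the miR-130 family, whose reported targets include TSC1 and receptors and SMAD proteins of TGF-beta signalling, and both lie in introns of SKA2, a gene of the kinetochore. The title of the series names this gene unit together with the PI3K-AKT pathway, which carries growth factor signals to survival and growth.

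The mature sequences show why the microRNAs of the unit can share targets. They are given 5′ to 3′ from RefSeq (GRCh38.p14), with the seed (bases 2 to 8) in capitals. The 3p arms of miR-454 and miR-301a have the same seed, while miR-454-5p has another.
hsa-miR-454-3p: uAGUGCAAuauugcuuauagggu
hsa-miR-301a-3p: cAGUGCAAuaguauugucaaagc
hsa-miR-454-5p: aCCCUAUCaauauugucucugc
The precursor of miR-454 lies at chr17:59137758-59137872 on the minus strand, within an intron of SKA2 (chr17:59109951-59155269). The hairpin is shown because reads of poly(A) RNA can come from the transcript around it but not from the mature microRNA. Capitals mark the 5p and the 3p arm.
MIR454 hairpin: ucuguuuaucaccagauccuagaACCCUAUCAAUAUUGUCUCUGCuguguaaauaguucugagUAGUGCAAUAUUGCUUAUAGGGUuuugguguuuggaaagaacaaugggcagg

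MIR454 had 468 counts in LV-miR454 and 0 in LV-vector-34, which is at least 157-fold higher when the vector is taken at 3 counts. It was at 24.8 CPM in LV-miR454 and at 0 in LV-3+4 and in the 3 CRISPRd libraries, and LV-miR301a held 1.44 CPM. The library labelled LV-3+4 thus goes against its label for MIR454, and the library labelled LV-miR301a holds reads that its label does not name. A count of 0 allows up to 0.165 CPM, the highest of the 3-count limits over the 7 libraries. MIR301A had 29 counts in LV-miR301a and 34 in LV-3+4, and 0 in LV-miR454, in the vector and in the 3 CRISPRd libraries. The host gene SKA2 stood at 63.2 CPM in the vector and 76.4 in LV-miR454, or 121% of the vector (112 to 131%). PRR11, the neighbour that shares a promoter region with SKA2, stood at 140 and 127 CPM, or 90.6% (85.7 to 95.8%). The microRNA itself was not measured in these libraries.

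Library totals in the table lie between 18842315 and 19139309 counts. The 15 A549 markers were all measured, with 0 called in either direction and log2 ratios of -0.64 to 0.67. Their summed level was 33145 CPM in the vector and 35600 in LV-miR454. Of 7 endothelial markers 0 were measured, and of 11 immune markers 4 were measured with 0 called, 4 others being at 0 in both libraries. HEK293 is a line often used to make lentivirus, and its 9 measured markers of 14 were all below the vector (median log2 -0.64, PAX2 called lower), with a summed level of 88.5 CPM in the vector and 64.0 in LV-miR454. Of 12 fibroblast markers 5 were measured, with COL1A1, COL5A1, FBN1 and THY1 called higher and COL3A1 called lower, THY1 being under 1 CPM in the vector. Their summed level was 82.0 CPM in the vector, 311 in LV-miR454 and 35 to 167 in the others, and their part in the matrix results below was not tested. In bulk RNA, fewer cells of a type and less RNA per cell cannot be told apart.

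A gene was called when its ratio of CPM plus 0.5 was 2-fold or more and its counting interval excluded 1. In LV-miR454, 442 genes (2.97% of those measured) were called higher than the vector and 510 (3.43%) lower. The median log2 ratio over all 14890 genes was -0.0027. Calls were more frequent among genes with few reads: 13.6% of genes that stayed under 5 CPM were called, and 3.19% of genes above 100 CPM. LV-miR301a, set against the same vector library, had 108 called genes (0.732%), 53 higher (0.359%) and 55 lower (0.373%). LV-3+4 had 94 (0.64%), 41 higher (0.279%) and 53 lower (0.361%), so LV-miR454 stood farther from the shared vector than either. By the same rule the vector itself differed from CRISPRd_Control in 645 genes (4.35%), being higher in 389 (2.62%) and lower in 256 (1.73%).

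**Figure D1:**
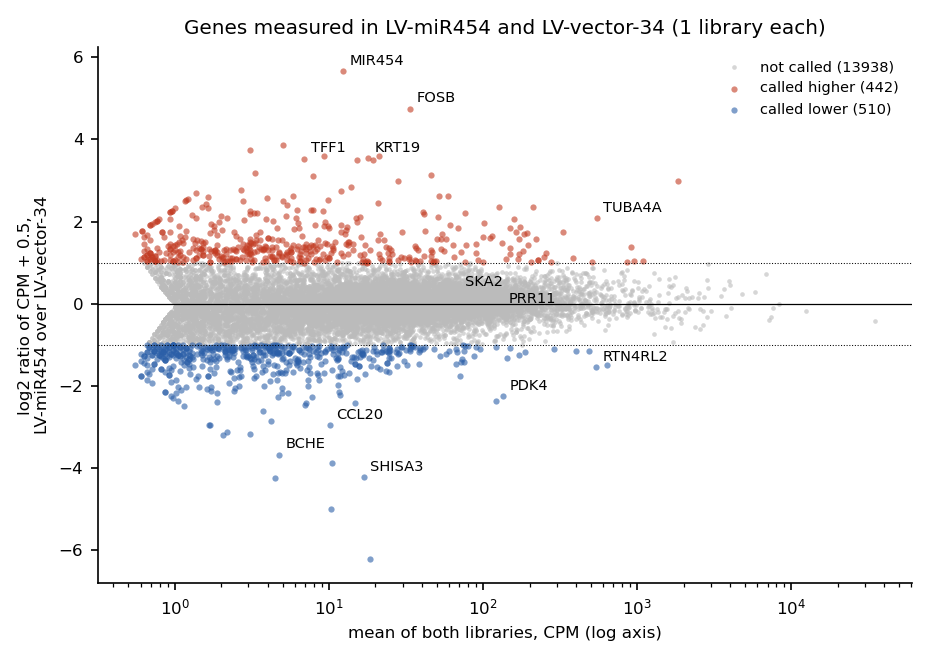
Each point is 1 of the 14890 measured genes, with the mean level of both libraries in CPM on the x axis (log scale) and the log2 ratio of CPM + 0.5, LV-miR454 over LV-vector-34, on the y axis. Dotted lines mark 2-fold; 442 genes are called higher (red) and 510 lower (blue), with MIR454 and FOSB among the higher and SHISA3, BCHE and PDK4 among the lower.

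Since the controls stood apart, LV-miR454 was also set against CRISPRd_Control. That comparison shares the LV-miR454 library with the first. It gave 831 called genes of 14846 (5.6%), 454 higher (3.06%) and 377 lower (2.54%). Called the same way against both controls were 195 genes higher (1.31%) and 150 lower (1.01%). Of the 442 higher genes, 2 were called lower against CRISPRd_Control, and of the 510 lower genes 16 were called higher. LV-miR454 lay above all 6 other libraries in 303 of the 442 higher genes, where 22.8% of all measured genes do so, and below all 6 in 335 of the 510 lower genes, where 20.9% do. Within the lentiviral set it lay above the 3 others in 432 of the 442 (40.5% of all measured genes) and below them in 489 of the 510 (39.9%). A called gene already lies beyond the vector, which is among both the 6 and the 3 libraries. The other lentiviral libraries also had few calls against that vector. The call rule itself thus raises these shares, so their excess over all measured genes is not separate evidence for the calls.

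The genes farthest above the vector held a transcription factor of the AP-1 family, secreted and matrix proteins, and genes that lung epithelium uses little. FOSB, an immediate early partner of JUN in AP-1, was at 65.3 CPM in LV-miR454 against 1.94 in the vector, a 33.7-fold difference (24.3 to 48.0). In the other 5 libraries FOSB lay between 0.203 and 3.19 CPM, so LV-miR454 stood alone.

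LDLRAD2, a membrane protein with a domain like that of the LDL receptor, was at 39.6 CPM against 2.83, 14-fold (10.6 to 18.8), while the other 5 libraries lay between 1.3 and 2.64. IGFL1, a small secreted protein of the IGF-like family, was at 9.89 CPM against 0.210, 47.2-fold (18.1 to 175). Few reads stand behind the IGFL1 level in the vector, which is why its interval is wide.

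KRT19, a keratin of simple epithelia, was at 33.6 CPM against 2.41, 13.9-fold (10.3 to 19.2). CRISPRd_Control held 18 CPM of KRT19, so against that control the difference was 1.86-fold and was not called. MYL9, a regulatory light chain of myosin, was at 6.40 CPM against 0.262, 24.4-fold (10.2 to 76.6), and was called against both controls. NIPAL4, a putative magnesium transporter, SYT13, a synaptotagmin, CES1, a carboxylesterase, PRSS3, a trypsinogen, and GLIPR1 were 6.30 to 16.1-fold above the vector. Each was called against both controls. Against CRISPRd_Control the folds were smaller: MYL9 4.20, NIPAL4 3.16, SYT13 3.23, CES1 2.17, PRSS3 8.34 and GLIPR1 3.49. For MYL9, NIPAL4, SYT13 and CES1 the vector itself was called lower than CRISPRd_Control. PRSS3 was at 5.08 CPM in LV-miR454 and 6.93 in CRISPRd_miR454-#1. TFF1, a secreted trefoil peptide of mucous epithelium, was at 13.2 CPM against 0.681, 19.3-fold (11.1 to 36.8), but CRISPRd_miR454-#1 also held 10.8 CPM. IGFL1, MYL9, PRSS3 and TFF1 were under 1 CPM in the vector, so they were measured only through LV-miR454 and their calls could only be higher.

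Some of the most extreme ratios belong to genes whose reads can be split among near-identical copies, and they are uncertain. SERF1A (0 to 6.19 CPM) and SULT1A3 (2.04 to 28.5 CPM) were called higher, and SULT1A4 (20.5 to 0.159 CPM) was called lower. SERF1A reversed against CRISPRd_Control, at a log2 ratio of -0.31. The pseudogenes HNRNPA1P33 (called higher), GTF2IP1 and HNRNPA1P10 (both called lower), ANXA8L1 of the annexin A8 copies (called higher), the readthrough gene RBM14-RBM4 and the 7SL RNA RN7SL2 (both called lower) belong with them. RN7SL2 reversed to 0.40 against CRISPRd_Control.

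The genes farthest below the vector split into those that were also low against CRISPRd_Control and those that were not. CCL20, a chemokine for CCR6-bearing lymphocytes, was at 1.90 CPM in LV-miR454 and 18.3 in the vector, 9.61-fold lower (6.80 to 13.9). Its other libraries were 24.4, 20.8, 8.93, 19.4 and 45.2 CPM for LV-miR301a, LV-3+4, CRISPRd_Control, CRISPRd_miR301a-#2 and CRISPRd_miR454-#1, so LV-miR454 was the lowest of the 7. PDK4, a mitochondrial kinase that restrains pyruvate dehydrogenase, was at 46.6 CPM against 224, 4.80-fold lower (4.46 to 5.16), and 2.99-fold lower than CRISPRd_Control (2.77 to 3.23). PDK4 reached 1119 CPM in CRISPRd_miR301a-#2 and 1679 in CRISPRd_miR454-#1. ASB4, HES7, the long noncoding RNA LINC00173, AGAP2, a GTPase-activating protein, and the nociceptin receptor OPRL1 were 5.19 to 6.5-fold below the vector and were lower against both controls. RBFOX3, a neuronal splicing factor, was at 11.4 CPM against 37.6 in the vector and 55.5 in CRISPRd_Control.

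For other low genes the control decided the result. SHISA3, a regulator of WNT and FGF receptor maturation, was at 1.27 CPM against 32.6 in the vector, 25.6-fold lower (17.1 to 40.3), and LV-miR301a (32.1 CPM) and LV-3+4 (33.5 CPM) were like the vector. In the CRISPRd libraries SHISA3 lay between 0.0550 and 1.08 CPM, and against CRISPRd_Control it was called higher in LV-miR454 (log2 1.44). CP, the copper protein ceruloplasmin, was at 39.2 CPM against 204 in the vector but 27.0 in CRISPRd_Control (log2 0.53), and ADGRV1 likewise reversed to 0.24. BCHE (butyrylcholinesterase), NTN1 (netrin-1) and TRIM67 were 35.1-fold, 12.2-fold and 6.73-fold below the vector and were not called against CRISPRd_Control. BCHE was not measured there because both its levels (0.265 and 0.761 CPM) were under 1 CPM. BCHE, NTN1 and ADGRV1 were under 1 CPM in LV-miR454, so they were measured only through the vector and could only be lower.

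**Figure D2:**
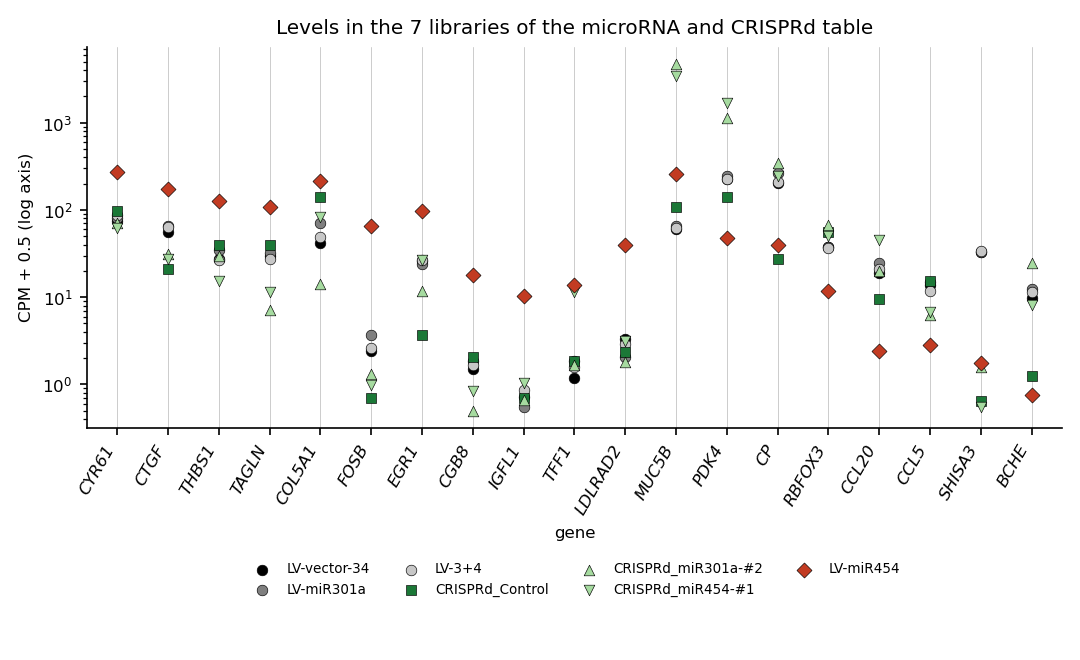
Levels of 19 genes named in the text, as CPM + 0.5 on a log axis, in each of the 7 libraries, 1 symbol per library. LV-miR454 (red diamonds) is above every other library for FOSB, EGR1, CGB8 and LDLRAD2 and below every other for PDK4, RBFOX3, CCL20 and BCHE, while SHISA3 is low in LV-miR454 and in the CRISPRd libraries.

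Genes with a site for miR-454-3p were compared with genes without one, since a microRNA lowers messages that carry its sites. An 8mer is TTGCACTA and a 7mer-m8 is TTGCACT in the 3′ UTR, and a 7mer-A1 is TGCACTA. Of the measured genes, 12844 had a 3′ UTR in GENCODE release 29 (GRCh38), the longest per gene being searched. The 425 genes with an 8mer had a median log2 ratio of -0.03, with 12 called higher (2.82%) and 12 lower (2.82%). The 1687 genes with a 7mer-m8 had a median of 0.01, the 464 with a 7mer-A1 had -0.02, and the 10268 with no site had 0.01, of which 2.72% were called higher and 2.93% lower. The quartiles of the 8mer genes, -0.28 and 0.20, describe the spread of single genes and not the precision of these medians. UTRs with a site are longer, with a median of 3298 bases for 8mer genes and 1079 for genes without a site. Among genes with UTRs of 2722 bases or more, the 252 8mer genes had a median of -0.04 and the 1805 genes without a site -0.01.

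Other 8mer words gave values of the same size. The median was -0.05 for the 264 genes with an 8mer of miR-454-5p. It was -0.01 for miR-21-5p, -0.02 for let-7a-5p and -0.03 for miR-122-5p, 3 microRNAs that were not introduced here. Against CRISPRd_Control the 8mer genes of miR-454-3p were at 0.0047. With the vector shared, the 8mer medians were -0.05 in LV-miR301a and -0.04 in LV-3+4, where quartiles were narrower (-0.19 and 0.07 in LV-miR301a). Genes with no site were at 0.0010 in LV-miR301a and 0.0073 in LV-3+4. In LV-vector-34 against CRISPRd_Control, 8mer genes were at 0.040 and genes with no site at -0.010. The part of the shared vector in the 8mer medians was not tested. A downward shift of 8mer genes of more than these few hundredths of a log2 unit was thus not seen in the messenger RNA of LV-miR454, and protein was not measured.

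The 12 genes with an 8mer that were called lower are 2.82% of the 8mer genes, where 2.93% of genes with no site were called lower. As many 8mer genes, 12, were called higher. Of the 12 lower genes, the sites of the first 4 by size of the ratio are shown with 11 bases on either side. The sequences are from GENCODE transcripts on GRCh38, with the 8mer in capitals, and each gene has this 1 8mer in its 3′ UTR.
FAM78A site, chr9:131258675-131258704, minus strand: tcaggtctttgTTGCACTAaagcagggaca
TACR1 site, chr2:75048709-75048738, minus strand: aattgggagacTTGCACTAcatttaatgtg
ICAM1 site, chr19:10286239-10286268, plus strand: tcactgggagcTTGCACTAtgcagctccag
INHBA site, chr7:41688681-41688710, minus strand: tcgtttactatTTGCACTAcaatggtgttt
ICAM1, the adhesion molecule that binds leukocyte integrins, was at 1.48 CPM in LV-miR454 against 6.81 in the vector, 4.60-fold lower (3.04 to 7.19), and 8.80-fold below CRISPRd_Control. FAM78A was at 1.27 CPM against 8.12, 6.40-fold lower (4.15 to 10.3), and missed the call against CRISPRd_Control at a log2 ratio of -0.92. TACR1, the substance P receptor, and INHBA, the activin A subunit, were 5.08-fold and 3.68-fold below the vector but called higher against CRISPRd_Control (log2 1.32 and 1.02). The others were NPNT, MCTP1, UNC13A, the BH3-only protein HRK, PLLP, ADAM11, SIX4 and the kinase RPS6KA5, with log2 ratios of -1.45 to -1.02. Of these 8, HRK, ADAM11 and RPS6KA5 were called lower against both controls, and NPNT reversed to 0.023 against CRISPRd_Control.

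Targets reported for the family in earlier work did not stand apart from all genes. Of 54 listed targets 48 were measured, and 2 were called higher and 1 lower, with a median log2 ratio of 0.01. That is 6.25% called, where 6.39% of all measured genes were called. TSC1, a brake on mTOR with 8mers, was at 17.5 CPM against 19.3 in the vector and 21.7 in CRISPRd_Control. Among receptors and SMADs of TGF-beta and BMP signalling, TGFBR2 (log2 0.34), BMPR2 (0.38), ACVR1 (0.12), SMAD4 (0.05) and SMAD5 (-0.16) were not called. PPARG, a nuclear receptor with an 8mer, was at 32.4 CPM against 54.2 (log2 -0.73), and RUNX3 (-0.51), BTG1 (-0.48), CSF1 (-0.66) and TP53INP1 (-0.69) were also under the vector without a call, CSF1 being called lower against CRISPRd_Control. KLF7, which has an 8mer, was at 74.1 CPM against 38.9 (log2 0.92).

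TGFBR1, a reported target called higher, holds a 7mer-m8. Its site is shown because the ratio runs opposite to the usual action of a site, with the 7mer in capitals.
TGFBR1 site, chr9:99152646-99152675, plus strand: tatttttattcTTGCACTggaagaatcgta
TGFBR1, the type I receptor of TGF-beta, was at 57.2 CPM in LV-miR454 and 25.2 in the vector, 2.27-fold (2.04 to 2.53). The other 5 libraries lay between 16.8 and 26.6 CPM. LV-miR454 was above all 6, and TGFBR1 was called higher against both controls.

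The counts of the lists below stand beside shares over all measured genes of 2.97% called higher and 3.43% called lower. Against both controls these shares were 1.31% and 1.01%. Immediate early genes are transcribed within minutes of growth factor or stress signals. Of 27 measured members of this list 6 were called higher and 1 lower, with a median log2 ratio of 0.39. Beside FOSB they were EGR1, at 96.0 CPM against 25.3 (3.80-fold, 3.44 to 4.21), ATF3 (3.03-fold), JUN (2.76-fold), FOSL1 (2.20-fold) and JUNB (2.09-fold). FOSL1, at 105 CPM in CRISPRd_Control, reversed against that control (log2 -0.24), while the other 5 were called higher against both. EGR1 was at 23.6 CPM in LV-miR301a, 26.2 in LV-3+4, 3.15 in CRISPRd_Control, 11.2 in CRISPRd_miR301a-#2 and 26.5 in CRISPRd_miR454-#1. LV-miR454 was the highest of the 7 for EGR1. FOS, the founding member of AP-1, was at 78.3 CPM against 39.8 (log2 0.97) and just missed the call. The orphan receptor NR4A2 was called lower (log2 -1.05), reversing to 0.87 against CRISPRd_Control.

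The plasminogen and protease list and the matrix list held many genes called higher. Of 15 measured protease and inhibitor genes 8 were called higher and 0 lower, with a median log2 ratio of 1.08. Among the 4 that were higher against both controls were MMP7 (matrilysin; 68.2 against 14.6 CPM, 4.66-fold, 4.09 to 5.33), TIMP3 (10.7-fold) and TIMP4 (3.59-fold), both TIMPs being inhibitors of metalloproteinases. TIMP3 was under 1 CPM in the vector. MMP7 was higher still in the CRISPRd knockouts, at 132 and 152 CPM. SERPINE2 (3.96-fold) and ADAM19 (2.36-fold) were not called against CRISPRd_Control, and MMP2 and PLAT reversed to -0.30 and -0.19 there. PLAU, the urokinase gene, was at 95.3 CPM against 128 (log2 -0.42), and its receptor PLAUR at 49.0 against 33.2 (0.56).

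Among 35 measured matrix and integrin genes, 10 were called higher and 2 lower, with a median of 0.43. Of the laminin chains, LAMB3 (log2 1.04) was called higher and LAMA3 (-1.01) lower. THBS1, the matricellular protein thrombospondin-1, was at 126 CPM against 26.7, 4.70-fold (4.27 to 5.18), and its other libraries lay between 15.0 and 38.7 CPM. COL1A1, ITGB6 (an integrin subunit that helps to activate latent TGF-beta), LAMB3 and THBS1 were among those called higher against both controls, and LAMA3 was called lower. COL5A1 was at 212 CPM against 41.0, 5.18-fold, but at 138 CPM in CRISPRd_Control, and COL4A1, SPARC, TNC and LAMA4, the last 2 of them under 1 CPM in the vector, were not called there. COL3A1 was called lower (log2 -1.42) and reversed to 2.10 against CRISPRd_Control. Fibronectin (FN1, 0.76) and ITGB1 (0.21) were not called.

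Genes of the contractile apparatus and of TGF-beta and YAP responses showed the same direction in a few members each. In the mesenchymal list, 5 of 19 measured genes were called higher, all 5 against both controls: MYL9, TAGLN (transgelin; 108 against 29.5 CPM, 3.65-fold, 3.32 to 4.01), S100A4 (3.30-fold), CNN1 (calponin; 12.1-fold, 3.01 to 106) and TPM1 (tropomyosin; 2.62-fold). Of these, MYL9 and CNN1 were under 1 CPM in the vector and so were measured only through LV-miR454. CDH11 was called lower, reversing to 0.62 against CRISPRd_Control. The transcription factors of epithelial-mesenchymal transition ZEB1 (-0.06), SNAI1 (-0.01) and TWIST1 (-0.65) were not called. VIM was at 0.61, CDH2 at 0.80 and ACTA2 at -0.95. CDH1, which encodes E-cadherin, was called lower, at 50.1 CPM against 103 in the vector, but CRISPRd_Control held 60.4.

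Of 29 measured TGF-beta genes, 5 were called higher and 1 lower (median 0.09). PMEPA1, a feedback inhibitor of the pathway with an 8mer for miR-454-3p, was at 506 CPM against 151, 3.36-fold (3.22 to 3.50), where the other 5 libraries lay between 72.3 and 186. SMAD7, another inhibitor, was 2.22-fold and the ligand TGFB2 2.04-fold above the vector. ID1 (-0.53), ID2 (-0.70) and ID3 (-0.06), which respond to BMP, were not called. In the YAP list 3 of 20 measured genes were called higher and 0 lower (median 0.15). They were CYR61 (273 against 74.1 CPM, 3.68-fold, 3.47 to 3.91), CTGF (173 against 54.9, 3.15-fold, 2.93 to 3.38) and F3, which encodes tissue factor (2.91-fold). CYR61, CTGF and F3 were highest in LV-miR454 among all 7 libraries. ANKRD1 (0.08), AMOTL2 (0.32) and AXL (-0.09) from the same list were not called.

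Placental hormone genes were called higher from very low levels. Of 20 listed genes 9 were measured, and 6 of these were called higher and 0 lower, with a median of 1.17. Since 5 of the 6 were under 1 CPM in the vector, they were measured only through LV-miR454 and could only be higher. CGB8, a gene for the beta chain of chorionic gonadotropin, was at 17.6 CPM against 0.996, 17.7-fold (11.1 to 29.8), and the other 5 libraries lay between 0 and 1.57. PSG4, a pregnancy-specific glycoprotein, was at 6.61 CPM against 1.21, 5.49-fold (3.50 to 8.97). CGB5 had 0 counts in the vector, at least 11.8-fold lower than the 1.85 CPM of LV-miR454. All 6 were highest in LV-miR454 among the 7 libraries and were called against both controls. The CGB genes, and the PSG genes, are close copies, so reads may be assigned to the wrong member. GDF15 of the same list was below the vector without a call (log2 -0.99) and was called lower against CRISPRd_Control. The summed level of the list, with GDF15 in it, was 92.0 CPM in the vector and 79.3 in LV-miR454. That sum thus does not give the level of the CGB and PSG genes alone.

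Genes of the epidermal differentiation list followed a like pattern, with 5 of 8 measured members of 26 called higher and S100A9 lower, and 3 of the 5 under 1 CPM in the vector. S100A3 was the best measured of these, at 31.2 CPM against 10.3, 3.04-fold (2.58 to 3.59). LCE3D, a cornified envelope gene, was at 2.54 CPM against 0.210. In the keratin and junction list 5 of 27 measured genes were called higher and 1 lower. They were KRT19, CLDN4 (10.7 against 1.78 CPM, 6-fold, 4.15 to 8.90), CEACAM1, CEACAM5 and KRT80. KRT8 (0.24), KRT18 (-0.10) and KRT7 (0.56), the abundant keratins of A549, were not called.

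Of 12 measured mucins, trefoil peptides and their regulators, 3 were called higher and 1 lower (median 0.46). MUC5B, a gel-forming airway mucin, was at 256 CPM against 60.6 in the vector, 4.22-fold (3.96 to 4.51), and 108 in CRISPRd_Control. It reached 4670 CPM in CRISPRd_miR301a-#2 and 3454 in CRISPRd_miR454-#1, so the level in LV-miR454 lay between the controls and the knockouts. MUC5AC, the other gel-forming mucin of airways, was called lower at 81.5 CPM against 206, and reversed against CRISPRd_Control (46.5 CPM, log2 0.80). TFF1 and MUC5B were the members called higher against both controls, and SPDEF, a transcription factor of goblet cells, was called against the vector alone.

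Among secreted signals, 2 of 16 measured chemokines and cytokines were called higher and 3 lower, each against both controls. IL11, a cytokine of the IL-6 family, was at 46.1 CPM against 13.3, 3.46-fold (3.01 to 4.00), and CLCF1 of the same family was 2.68-fold higher. CCL20, CCL5 (2.33 against 13.2 CPM, 5.67-fold lower, 4.11 to 8.01) and CXCL3 (3.54-fold lower) were lowest in LV-miR454 among the 7 libraries. CXCL8 (-0.02), CXCL2 (0.13) and CCL2 (0.89) were not called. Of 21 measured NF-kB genes 1, ICAM1, was called lower (4.76% of the list, against 6.39% called over all genes). Of 26 measured receptor tyrosine kinases and ligands, 6 were called higher and 2 lower. PDGFC, BTC and FGFBP1 were under 1 CPM in the vector, so they were measured only through LV-miR454 and could only be higher. PDGFB, at 26.3 CPM against 5.66 (4.65-fold, 3.77 to 5.78), was the 1 called against both controls. PDGFC, HBEGF, BTC and FGFBP1 were not called against CRISPRd_Control, TGFA reversed there (-0.29), and so did IGF2 (0.65) and ERBB3 (0.24), both called lower against the vector.

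The PI3K-AKT pathway had 0 called genes among 30 measured core members (median 0.02, range -0.98 to 0.32, against 6.39% called over all genes). AKT1 was at 207 CPM against 172 (log2 0.27) and AKT2 at 207 against 186 (0.15). RICTOR, the scaffold of mTOR complex 2, was at 23.6 CPM against 47.2, and the adaptor IRS2 at 48.2 against 95.6, both at -0.98. Among 21 brakes of the pathway, INPP4B, a lipid phosphatase, was called higher at 24.8 CPM against 7.71, 3.21-fold (2.66 to 3.89), and DDIT4, an inhibitor of mTOR complex 1, lower at 115 against 259, 2.25-fold (2.14 to 2.37). INPP4B was called against both controls and DDIT4 was not (log2 -0.91). PHLPP1, which dephosphorylates AKT, was at 18.5 CPM against 34 (-0.86). FOXO transcription factors are held back by AKT, and of 19 measured output genes 2 were called higher (TXNIP, GADD45A) and 2 lower (PDK4, CCNG2), with 14 of 19 below 0 and a median of -0.15. Against CRISPRd_Control the median was 0.13, so the direction turned with the control. TXNIP was under 1 CPM in the vector and was measured only through LV-miR454. TXNIP, PDK4 and GADD45A were called the same way against both controls. Phosphorylation was not measured.

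Cell cycle genes moved little. Of 35 measured G1/S and replication genes, 31 had ratios above 0 with a median of 0.38, but only CCNE2 was called (13.5 against 5.87 CPM, 2.31-fold, 1.84 to 2.91). CCNE1 (0.96), CCND1 (0.73; 499 against 300 CPM), CDC6 (0.70) and RRM2 (0.65) were the next. Against CRISPRd_Control the median of this list was 0.06, so the shift depended on the control. Of 37 genes of G2 and mitosis, 0 were called (median 0.04), and of 28 p53 targets 2 were called higher, TP53I3 (258 against 85.8 CPM, 3-fold, 2.84 to 3.18) and GADD45A.

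Lists without many calls can still lie on 1 side of 0. All 33 measured ribosomal protein genes were below the vector by a little (median -0.18, 0 called), yet their median against CRISPRd_Control was 0.09. Cholesterol and fatty acid genes were above the vector in 28 of 29 (median 0.43, 0 called), with IDI1 at 0.93 and INSIG1 at 0.77, and their median against CRISPRd_Control was 0.52, with 6 called higher. Of 23 measured liver and gut genes 17.4% were called, against 6.39% over all genes. There were 4 called lower, 2 of them under 1 CPM in LV-miR454, and 0 higher (median -0.25). Against CRISPRd_Control, however, 7 were called higher (median 0.54). SLC2A1, the glucose transporter GLUT1, was at 359 CPM against 153, 2.35-fold (2.25 to 2.45), and 119 in CRISPRd_Control. The NRF2 list, active in A549 through its KEAP1 mutation, had 1 of 31 called (UGT1A6). Of 12 genes that process or load microRNAs 0 were called, with DGCR8 at 0.82 and AGO2 at -0.20. Of 25 measured genes of 17q22, GDPD1 was called lower (2.01 against 6.08 CPM), which is 4% of the list, against 6.39% called over all genes.

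Other lists had few called members in number, but several had a larger called share than the 6.39% of all measured genes. The shares were 20% for the neuronal and secretory list, 18.8% for complement and 14.8% for ATF4 and unfolded protein. They were 12.5% for the BCL2 family, 10% for hypoxia and glycolysis, 6.67% for HLA class I and 4.35% for interferon response. In the ATF4 and unfolded protein list, 1 of 27 measured genes was called higher, ATF3, and 3 lower. PHGDH, the first enzyme of serine synthesis, was at 37.4 CPM against 83.7 and was lower against both controls (CRISPRd_Control 124 CPM), which NUPR1 and DDIT4 were not. In the BCL2 family 2 of 16 were called lower, the BH3-only genes HRK (under 1 CPM in LV-miR454) and BMF (log2 -1.09), while MCL1 (0.37) and BCL2L1 (-0.04) were not called. Of 20 measured neuronal and secretory genes, RBFOX3, SYT11 (log2 -1.35) and VGF (-1.14) were called lower against both controls and CALB2, under 1 CPM in the vector, was called higher. Of 16 measured complement genes 1 was called higher and 2 lower. C5 (58.3 against 121 CPM) and CD55 (60.3 against 130 CPM) were the lower ones, and they were not called against CRISPRd_Control. Of 23 measured interferon response genes 1, ISG20, was called lower. Of 15 HLA class I genes NLRC5, a regulator of that class, was called higher. In the hypoxia and glycolysis list SLC2A1 and ANKRD37 (at 0 in the vector) were called higher and NDRG1 lower of 30. Measured members of the alveolar and airway list (8), the replication-dependent histones (6) and the CDK inhibitors (5) had 0 calls.

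Promoters were searched for 2 motifs of the factors above, on both strands, in the 300 bases from 250 before to 50 after the gene start (RefSeq, GRCh38.p14; 10945 measured genes matched). The AP-1 motif, TGAGTCA or TGACTCA, was in 24 of 271 promoters of genes called higher (8.86%), 13 of 303 called lower (4.29%) and 3.22% of all measured, against 4.92% of all promoters of the table. The CArG box, bound by serum response factor, was in 3.69% of those called higher, 2.64% called lower, 1.03% of all measured and 1.29% of the table. In the same order TATAAA was in 11.8%, 9.57%, 5.45% and 12%, and a GC box was in 49.4%, 62.4%, 69.3% and 44.6%. Called genes thus also differed from measured genes in general promoter elements. Of 97 named called genes with a promoter, 7 had the AP-1 motif and 3 the CArG box. ISG20, called lower, was among those with AP-1. A match is a description of letters, not of binding. The 250 bases before the start are shown for EGR1, which carries 2 CArG boxes, and for IL11 and MMP7, which carry an AP-1 motif, with matches in capitals.
EGR1 promoter, chr5:138465229-138465478, plus strand: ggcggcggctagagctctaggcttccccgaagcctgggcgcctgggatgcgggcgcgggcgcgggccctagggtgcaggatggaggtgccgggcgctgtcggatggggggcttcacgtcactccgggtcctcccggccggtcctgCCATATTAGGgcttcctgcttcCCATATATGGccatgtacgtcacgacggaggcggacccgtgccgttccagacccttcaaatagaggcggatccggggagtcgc
IL11 promoter, chr19:55370464-55370713, minus strand: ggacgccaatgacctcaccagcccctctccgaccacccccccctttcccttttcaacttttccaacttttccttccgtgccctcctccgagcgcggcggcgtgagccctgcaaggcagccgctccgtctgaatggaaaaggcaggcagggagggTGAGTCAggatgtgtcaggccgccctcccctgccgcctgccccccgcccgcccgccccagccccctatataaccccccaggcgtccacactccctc
MMP7 promoter, chr11:102530748-102530997, minus strand: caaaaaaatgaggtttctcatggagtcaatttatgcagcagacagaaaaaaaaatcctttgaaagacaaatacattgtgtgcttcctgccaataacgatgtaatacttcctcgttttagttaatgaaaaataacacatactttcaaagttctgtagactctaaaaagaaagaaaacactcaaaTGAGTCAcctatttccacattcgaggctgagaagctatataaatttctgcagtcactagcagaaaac
FOSB had neither motif in its window.

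The knockout library of the same precursor gives a comparison that shares no library with LV-miR454 and its vector. CRISPRd_miR454-#1 had 1455 called genes (9.71%) against CRISPRd_Control, 991 higher (6.61%) and 464 lower (3.1%). Of 366 genes called higher in LV-miR454 and measured there, 60 were lower in the knockout (16.4% of them and 12.9% of the knockout's lower calls) and 84 were higher (23% and 8.48%). Of 436 genes called lower in LV-miR454, 81 were higher in the knockout (18.6% and 8.17%) and 36 were lower (8.26% and 7.76%). Genes called in LV-miR454 were thus called more often in the knockout in both directions than the background of 6.61% and 3.1%. In both groups the knockout's higher calls outnumbered its lower calls, as they do over all genes. The balance of opposite and same calls thus carries that skew and cannot be read alone. Calls in LV-miR454 were more frequent among genes with few reads, and the part of read number in this overlap was not tested. THBS1 (15.0 CPM in the knockout, 38.7 in its control) and TAGLN (11 and 38.8) were among those lower in the knockout. MMP7 (152 and 22.2) and MUC5B were higher in both.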

How the data were processed

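The authors deposited unnormalised expected counts, which are estimated per gene and can hold fractions. The submitters' processing notes name Bowtie2 2.3.5.1, RSEM 1.3.3 and GRCh38.p13. The annotation release and the use of strand are not given in the sources, so overlapping and antisense genes may share reads. Numbered copies of a symbol (4840 entries, 2.02% of counts) were summed and the counts rounded. Entries whose symbol had become a date (29, 0.172%) were left out. Library sizes were scaled by TMM (edgeR 4.0.16, R 4.3.3). Folds are CPM ratios with exact (Clopper-Pearson) 95% intervals, and log2 ratios add 0.5 CPM, which understates changes of low genes. Reads are not independent molecules. No differential test was run with 1 library per group. The call rule was also run on simulated counts that held counting error only. That run cannot show how the rule fares with differences between cultures or libraries. Named genes were the unit, the 20 called genes in each direction at 5 CPM or more whose nearer interval bound lay farthest from equality, up to 8 called members per list (for lists with under 3, also 4 of highest CPM), reported targets at 5 CPM or more, and the 12 lower genes with an 8mer. Other members are named as examples chosen after their values were seen. The comparison, the 42 lists and the rules were chosen with earlier results of these data known, and the knockout comparison and promoter search were added after the data were seen. Mitochondrial genes were not analysed here, and some genes that the rule names, counted in their lists, are not reported here. Python 3.11.15, numpy 2.4.6, pandas 2.3.3 and scipy 1.17.1 were used. DESeq2 1.42.0 gave alternative size factors.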

Additional observations from a re-analysis of the deposited data

Results flagged for a closer look

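Reads of MIR454 appeared in a library outside the comparison. LV-miR301a, whose label names only miR-301a, held 28 MIR454 counts, where LV-vector-34 held 0. The library labelled LV-3+4, whose label names both microRNAs, held 0 MIR454 counts and 34 MIR301A counts.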

How the results depend on the processing

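The calls rest on 1 library per group, so leaving out a replicate was not possible. No paired analysis was possible because each group is 1 library. Counts of calls against LV-vector-34 (442 higher, 510 lower), against CRISPRd_Control (454, 377) and between the 2 controls (389, 256) stayed within 1.5 times under plain library totals, DESeq2 size factors, no CPM filter and copies kept apart. With a pseudocount of 2 CPM they were 222 and 204, 236 and 149, and 194 and 108. At 5 CPM in either library they were 262 and 259, 268 and 192, and 203 and 125. At a fold of 1.5 they were 1214 and 1507, 1146 and 1281, and 987 and 831, and at a fold of 3 they were 136 and 109, 155 and 77, and 163 and 77. With a pseudocount of 0.1 CPM, lower calls against CRISPRd_Control were 579. These settings change how large a difference or how many reads a call needs. Medians of the seed classes moved by less than 0.1 with all UTRs of a gene merged, at 5 CPM and with CRISPRd_Control, where the 8mer (0.0047) and 7mer-A1 (0.038) medians were above 0. The median of all genes was -0.04 with plain totals and 0.01 with DESeq2 size factors.

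Of 143 named called genes, 22 reversed with CRISPRd_Control as the control, and 0 reversed under the other alternatives. Their log2 ratios there were -0.31 for SERF1A, 1.44 for SHISA3, 0.40 for RN7SL2, 0.24 for ADGRV1, 0.53 for CP, -0.24 for FOSL1, 0.87 for NR4A2, 0.80 for MUC5AC, 1.02 for INHBA, 0.65 for IGF2, 0.24 for ERBB3, -0.29 for TGFA, 0.038 for ISG20, -0.30 for MMP2, -0.19 for PLAT, 0.62 for CDH11, 0.70 for NDRG1, 0.55 for TM4SF20, -0.46 for THY1, 2.10 for COL3A1, 1.32 for TACR1 and 0.023 for NPNT. The cause was not tested. With that control, 81 other named genes kept their direction but were classed as moved in size, and only 40 as the same. With a pseudocount of 2 CPM, 42 of the 143 were classed as moved, and fewer under the other alternatives. List medians changed sign in 12 of 40 lists with CRISPRd_Control, and 27 of the 40 were classed as moved. Signs of list medians also changed in 4 lists with plain library totals, 3 at 5 CPM and 2 with DESeq2 size factors.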
